A study of Mus musculus with 24 samples.

Results

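Passage 2 organoids grown from irradiated salivary glands were compared with first-passage organoids of sham-irradiated glands, both from glands taken 90 days after the procedure. The comparison uses 6 of the 24 libraries of the study, all 3 of each group, chosen by their labels. The question is how far the second-passage cultures of irradiated glands kept the expression state of untreated cultures at their first passage. Treatment and passage both differ between the groups, so their effects cannot be told apart in this comparison alone. The other groups of day 90 are set beside it.

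The cells were labelled as stem or progenitor cells of the salivary gland of C57BL/6 mice, with no allele or transgene named. All groups shared the culture: Matrigel and a medium with N2, EGF, FGF2, insulin, dexamethasone and Y-27632. IR passage 2 means that the gland was irradiated and the organoids were in their second passage, and sham passage 1 means a sham-irradiated gland and organoids in their first. Second-passage cultures descend from first-passage ones. The sources used here give no radiation dose, age or sex of the mice. Whether replicates are separate animals or cultures is not labelled, so the p-values cover the spread among these libraries alone, which may be technical. Transcripts were counted from their 3' ends with the QuantSeq method, and levels are given as CPM, counts scaled by library size with TMM factors.

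Salivary ducts hold basal cells, marked by keratins 5 and 14, which act as progenitors, and luminal cells, marked by keratins 7, 8 and 18, which carry and modify saliva. Organoids start from such progenitors and are passaged by dissociation and replating. BMP4 is a secreted ligand that signals through type I and type II receptors to SMAD1 and SMAD5. The ID genes, inhibitors of basic helix-loop-helix factors, are textbook targets of that signal.

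The 6 libraries held 1840672 to 3189466 counts on genes, and 14241 to 15539 genes had at least 1 count. Epithelial duct markers were high in every library: summed over the list, basal duct genes came to 7003 to 10978 CPM in sham passage 1 and 3273 to 7972 CPM in IR passage 2. Markers of other cell types were scarce. Of 16 mesenchymal markers 1 passed the filter on low counts (Vim), and Col1a1 and Dcn, which fibroblasts make in bulk, reached at most 0.406 CPM. The summed level of the mesenchymal list was 44.0 to 73.2 CPM in sham passage 1 and 26.3 to 117 CPM in IR passage 2. Endothelial and neural lists had 2 tested members each, and summed to 35.5 to 48.4 and 32.3 to 42.6 CPM in sham passage 1 and to 23.8 to 67.3 and 29.2 to 34.2 CPM in IR passage 2. The immune list summed to 15.8 to 42.9 CPM and to 19.3 to 119 CPM, with Ptprc, the defining surface protein of leukocytes, at 0.352 CPM or less. The upper values of the immune list came from Cd14, a co-receptor for bacterial lipopolysaccharide, at 117 and 70.2 CPM in IR passage 2 replicates 2 and 3. The part of other cell types in the results was not tested.

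Replicate 1 of IR passage 2 stood apart from replicates 2 and 3. The chi-square per degree of freedom between library counts was 26.7 and 19.5 for its pairs with replicates 2 and 3 and 3.69 between replicates 2 and 3. Gm42418, a predicted gene at a ribosomal RNA repeat, held 13.5% of its gene counts against 24.3% and 23%. In sham passage 1 that share was 28.6%, 15.9% and 11.8%, and replicate 1 stood apart there as well (17.1 and 25.9 against 7.80 between replicates 2 and 3). Calls in many lists are therefore given with and without IR passage 2 replicate 1, an alternative added after the data were seen. Kept counts of lists use all libraries. Replicate 1 was also the library of its group nearest to sham passage 1. Its mean root mean square difference in log2 CPM was 0.521, against 0.759 and 0.645 for replicates 2 and 3. Leaving it out therefore favours larger differences, and calls made without it are descriptive only.

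Few genes were told apart between the groups. Of 10563 tested genes 7 were called, 1 higher (0.00947%) and 6 lower (0.0568%), which is 0.0663% in all, by edgeR's quasi-likelihood test at an adjusted p of 0.05 over all tested genes. Saa1 was higher in IR passage 2, and Car6, Mucl2, Klk1, Tfap2b, Nt5dc2 and 2310057J18Rik were lower. The median log2 fold change over all tested genes was −0.00, with quartiles of −0.21 and 0.20. For 7097 genes (67.2%) the 95% interval of the log2 fold change lay within −1 and 1, which is called kept within 2-fold here. The other 3459 genes were neither called nor kept. Among them 176 had a fold change of more than 2-fold higher and 310 of more than 2-fold lower that the test did not separate from 0. Before adjustment, 1031 genes (9.76%) had a p under 0.05, and DESeq2 called 36.

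The count of calls rests on IR passage 2 replicate 1. Without it, 417 of 10822 genes were called (3.85%), 159 higher (1.47%) and 258 lower (2.38%), and 5776 were kept within 2-fold. The 7 genes called with all libraries were also called without it. Leaving out a sham library left 4, 7 or 2 calls for replicates 1, 2 and 3 in that order, and IR replicate 2 or 3 left 1 or 2. In these fits the remaining pair of libraries shares its spread with the other groups.

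The 3 called genes with the largest negative fold changes encode proteins of saliva and were nearly silent in IR passage 2. The bases before their transcription start, and those of Tfap2b and Saa1, are shown because these genes carry the called difference. The sequences are the 80 bases upstream of the start on the gene's strand, from RefSeq promoters of the build GRCm38.p6. The counts were made on GRCm39, so these coordinates belong to the sequence table only. Capitals mark TATA-like letters that lie wholly within the window from 45 to 15 bases before the start. TATAAA was the first form searched, TATATA the second and TTTAAA the third.
Car6, chr4:150201136-150201215, minus strand: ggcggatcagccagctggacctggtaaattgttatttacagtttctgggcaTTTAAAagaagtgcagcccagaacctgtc
Mucl2, chr15:103899313-103899392, minus strand: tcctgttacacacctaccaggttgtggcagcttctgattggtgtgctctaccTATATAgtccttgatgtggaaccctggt
Klk1, chr7:44225280-44225359, plus strand: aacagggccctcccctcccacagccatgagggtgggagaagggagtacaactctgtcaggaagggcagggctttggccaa
Tfap2b, chr1:19211974-19212053, plus strand: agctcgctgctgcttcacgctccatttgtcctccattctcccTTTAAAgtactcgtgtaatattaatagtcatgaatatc
Saa1, chr7:46742981-46743060, minus strand: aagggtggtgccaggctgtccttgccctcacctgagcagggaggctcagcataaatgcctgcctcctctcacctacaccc

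All 7 called genes were in the promoter table, with 8 promoters since Nt5dc2 has 2 starts. TATA-like letters stood in 3 of the 8, at 29 bases before the start in Car6, 28 in Mucl2 and 38 in Tfap2b. Over all 32851 promoters of the table the share was 4.539%. The letters GCCNNNGGC, the core bound by AP-2 factors such as the product of Tfap2b, stood on either strand within 250 bases before the start in 1 of the 8 (Mucl2) and in 13.726% of all promoters. The motifs were chosen after the called genes were known, and a match is a description of the letters only.

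Car6 encodes a carbonic anhydrase secreted into saliva. It was at 28.2, 11.6 and 9.83 CPM in sham passage 1 replicates 1 to 3 and at 0 in all 3 IR passage 2 libraries, 121 counts against 0. Taking 3 counts in the IR group as the floor, it was at least 39.1-fold lower (adjusted p = 0.00599, edgeR). Mucl2, a mucin-like gene, was at 55.3, 10.6 and 19.9 CPM in sham passage 1 and likewise at 0 in IR passage 2, 205 counts against 0. It was at least 66.2-fold lower (adjusted p = 0.0120, edgeR). Both genes were highest in sham replicate 1, and the groups did not overlap. Over all tested genes the groups did not overlap for 613 with IR passage 2 higher (5.80%) and for 679 with it lower (6.43%).

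Klk1, the tissue kallikrein of duct cells, was at 84.6, 10.6 and 46.0 CPM in sham passage 1 and at 1.19, 0 and 1.22 CPM in IR passage 2. Its log2 fold change was −5.67 (SE 1.47, adjusted p = 0.0384, edgeR). The Klk1 family has close copies, so its counts are uncertain. The groups stood apart, although sham replicate 2 was far below replicates 1 and 3. The call of Klk1 was lost without sham replicate 1 (adjusted p = 0.205) or 3 (0.127) and without IR replicate 2 (0.416) or 3 (0.264), and that of Mucl2 without IR replicate 2 (0.0823) or 3 (0.0596, edgeR). The call of Car6 held without any 1 of the 6 libraries.

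The acinar and secretory list, to which Car6 and Mucl2 belong, had 11 tested members of 23, with 2 called lower, 0 called higher and 3 kept within 2-fold. Its median log2 fold change was −0.62 against −0.00 for all tested genes, and the members with no count in IR passage 2 lie below it also at their bounds. With 1 library left out and the filter on low counts applied anew, the median was between −1.32 (without sham replicate 1) and −1.99 (without sham replicate 2). Prol1, a salivary proline-rich protein gene, was at 13.5, 11.3 and 13.7 CPM in sham passage 1 and at 0.298, 0 and 1.22 CPM in IR passage 2, with a log2 fold change of −4.56 that was not called (SE 1.39, adjusted p = 0.105, edgeR). Without IR replicate 1, Prol1 was called lower and Ltf higher (adjusted p = 0.0464 and 0.00903, edgeR). Dcpp1 and Dcpp3, near-identical salivary secreted protein genes whose reads may be shared, had 14 and 24 counts in sham passage 1 and 0 in IR passage 2. Slc12a2, the sodium, potassium and chloride cotransporter, Chrm3, a muscarinic receptor, and Ano1, a chloride channel, were the 3 members kept within 2-fold (0.15, 0.15 and −0.05 on the log2 scale). Aqp5, the apical water channel, was at 36.1, 60.5 and 43.7 CPM and at 34.5, 25.5 and 31.2 CPM, a log2 fold change of −0.62 with an interval from −1.47 to 0.23. Ltf, which encodes the iron-binding antimicrobial lactoferrin, had the opposite sign, at 45.1, 33.8 and 25.9 CPM against 58.9, 158 and 99.0 CPM (1.61, SE 0.39, adjusted p = 0.162, edgeR).

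The 3 saliva genes were low in passage 2 cultures of sham glands too. Sham passage 2 held Car6 at 0.599, 0.304 and 0.751 CPM, Mucl2 at 0, 0.304 and 0.376 CPM and Klk1 at 0.899, 1.22 and 0.376 CPM. Against the same sham passage 1 libraries these were log2 fold changes of −4.74, −6.66 and −5.66 (adjusted p = 0.00231, 0.00231 and 0.00837, edgeR). IR passage 1 held Klk1 at 38.2, 54.2 and 16 CPM, within the sham passage 1 range, and Car6 at 6.19, 2.64 and 3.48 CPM, between the passage 1 and passage 2 values of sham glands. These comparisons share libraries and are given side by side only. In such bulk libraries, fewer cells of a type and less RNA per cell cannot be told apart.

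Tfap2b, which encodes the transcription factor AP-2 beta, was at 11.8, 13.0 and 15 CPM in sham passage 1 and at 0.595, 0.836 and 2.03 CPM in IR passage 2. The log2 fold change was −3.53 (SE 0.66, adjusted p = 0.0133, edgeR) and every sham library lay far above every IR library. Nt5dc2, a gene of the 5'-nucleotidase domain family, was at 26.5, 11.6 and 18.9 CPM against 6.55, 3.76 and 2.03 CPM (−2.12, SE 0.40, adjusted p = 0.0371, edgeR). The predicted gene 2310057J18Rik was at 7.90, 11.3 and 11.9 CPM against 1.19, 0 and 0 CPM (−4.31, SE 1.01, adjusted p = 0.0208, edgeR). All 3 genes kept their groups apart, but the calls rest on single libraries. Without IR replicate 2 the adjusted p was 0.18 for Tfap2b, 0.299 for Nt5dc2 and 0.223 for 2310057J18Rik, and without sham replicate 3 it was 0.0873, 0.137 and 0.106 (edgeR). Nt5dc2 was also lost without sham replicate 1 (0.205) or IR replicate 3 (0.268), and 2310057J18Rik without IR replicate 3 (0.142). Tfap2b and Nt5dc2 were lower in IR than in sham organoids of passage 2 as well, by log2 fold changes of −2.27 (SE 0.68, adjusted p = 0.0341, edgeR) and −1.74 (SE 0.40, adjusted p = 0.0112, edgeR).

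Saa1, which encodes an acute phase serum amyloid A, was the gene called higher. It was at 1.13, 3.17 and 1.03 CPM in sham passage 1 and at 8.33, 66.0 and 25.6 CPM in IR passage 2, 4.16 higher on the log2 scale (SE 0.87, adjusted p = 0.0384, edgeR). The groups did not overlap, but IR replicate 1 was the lowest of its group. Sham passage 2 was at 16.2, 25.8 and 55.6 CPM, and IR passage 1 at 0.516, 0 and 0 CPM. Saa1 and its neighbour Saa2 are near-identical, so reads may be shared. The call of Saa1 was lost without sham replicate 1 (adjusted p = 0.225), 2 (0.0673) or 3 (0.245) and without IR replicate 2 (0.453) or 3 (0.103, edgeR). It was also lost when the share of counts on Gm42418 entered the fit (adjusted p = 0.0778), with the 12 libraries of day 90 alone (0.137) and with the 6 compared libraries alone (0.350, edgeR).

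**Figure D1:**
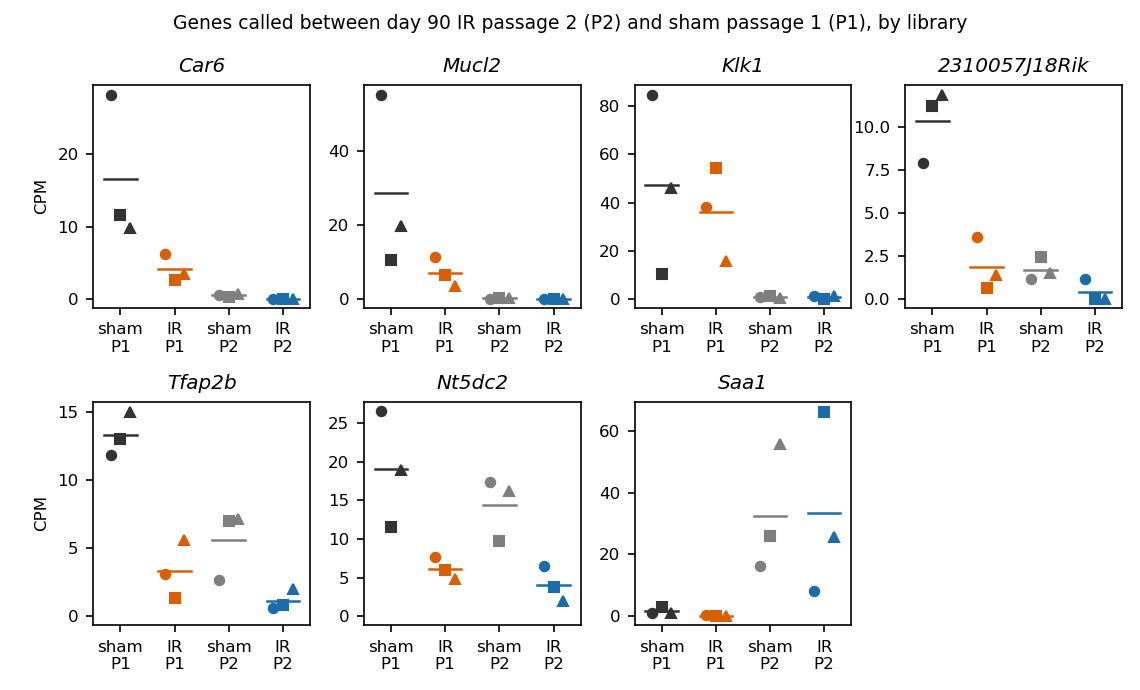
Level in CPM (linear axes that differ between panels) of the 7 called genes in the 12 libraries of day 90, with replicates 1, 2 and 3 as circles, squares and triangles and group means as lines. Car6, Mucl2 and Klk1 lie near 0 in both passage 2 groups, Tfap2b and 2310057J18Rik are highest in sham passage 1, and Saa1 is high in both passage 2 groups.

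Saa1 belongs to a list of 29 tested NF-kB target, chemokine and acute phase genes, of which it was the 1 called. The list median was 0.35, with 22 of 29 positive and 6 kept within 2-fold. It was 0.23 without IR replicate 3 and 0.59 without IR replicate 1. Sham passage 2 and IR passage 1 had list medians of 0.43 and 0.08 against the same sham passage 1 libraries. Cxcl5, a chemokine that draws neutrophils, was at 398, 459 and 420 CPM in sham passage 1 and at 609, 2915 and 1873 CPM in IR passage 2 (2.08, SE 0.44, adjusted p = 0.0946, edgeR). Lcn2, the siderophore-binding lipocalin, was at 271, 404 and 279 CPM against 379, 1296 and 1117 CPM (1.55, SE 0.40, adjusted p = 0.169, edgeR). Saa3 was at 6.77, 9.86 and 4.92 CPM against 5.66, 95.3 and 39.3 CPM. In each, replicate 1 was the lowest of the IR libraries, below 1 or more sham libraries for Lcn2 and Saa3, and replicates 2 and 3 lay well above the sham range. Without replicate 1, 6 of 29 members were called higher, against 1.47% of all tested genes. Among them were Cxcl5 (2.50, adjusted p = 0.00292), Lcn2 (1.93, adjusted p = 0.00561) and Saa3 (3.25, adjusted p = 0.00473, edgeR). The 1 member called lower was Il33 (−5.51, adjusted p = 0.0143, edgeR), an alarmin cytokine, at 12.4, 9.15 and 14.2 CPM against 4.76, 0 and 0.406 CPM. The inhibitor Nfkbia and the subunit Nfkb1 were kept within 2-fold (0.35 and −0.09).

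Luminal keratins of IR passage 2 were close to those of sham passage 1. Krt8 was at 134, 96.5 and 117 CPM in sham passage 1 and at 113, 132 and 167 CPM in IR passage 2, and the groups overlapped. Its log2 fold change was 0.24, with a 95% interval from −0.16 to 0.65. Those of Krt18 and Krt7 were 0.40 (−0.05 to 0.84) and 0.04 (−0.53 to 0.61), so all 3 were kept within 2-fold. Without IR replicate 1, Krt8, Krt18 and Krt7 were at 0.38 (SE 0.21), 0.60 (SE 0.22) and 0.08 (SE 0.31). Sham organoids had less of these keratins at passage 2. Krt8 was at 33.2, 43.8 and 45.4 CPM in sham passage 2, which was −1.50 on the log2 scale against sham passage 1 (SE 0.20, adjusted p = 0.000529, edgeR). Krt18 and Krt7 were −1.19 and −1.52 in that comparison (adjusted p = 0.00837 and 0.00871, edgeR). IR passage 1 was highest for Krt8, at 230.5, 253 and 290 CPM. In irradiated glands, passage 2 against passage 1 gave −0.91, −0.74 and −0.75 for Krt8, Krt18 and Krt7. None of these was called (adjusted p = 0.0995, 0.239 and 0.357, edgeR).

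Of 21 tested luminal duct genes 10 were kept within 2-fold, 1 was called lower (Klk1) and 0 higher, and the list median was 0.22. It was 0.08 without IR replicate 3 and 0.40 without IR replicate 1. The kept members included Wfdc2, a secreted whey acidic protein, Clu, the chaperone clusterin, and Epcam, an epithelial adhesion molecule (0.34, 0.22 and −0.12). Krt19 departed from the other keratins, at 33.3, 9.51 and 8.28 CPM against 2.08, 1.67 and 2.84 CPM (−2.85, SE 0.95, adjusted p = 0.284, edgeR). Cldn4, a tight junction claudin, was at 144, 137 and 144 CPM against 106, 443 and 528 CPM, and Elf3, an epithelial ETS factor, at 14.1, 10.6 and 11.4 CPM against 7.14, 47.2 and 39.3 CPM. Without IR replicate 1, 1.47% of all tested genes were called higher, and of the luminal genes only these 2 (1.79 and 1.87, adjusted p = 0.00532 and 0.00903, edgeR). In both, replicate 1 was below every sham library and replicates 2 and 3 above.

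No basal duct gene was called. All 21 tested had a negative log2 fold change, 8 were kept within 2-fold, 0 were called by edgeR and 7 had an unadjusted p under 0.05. The list median was −0.51, and −0.33 without IR replicate 2. Krt5 was at 2116, 1426 and 2087 CPM in sham passage 1 and at 1836, 392 and 483 CPM in IR passage 2 (−1.05, SE 0.43, adjusted p = 0.425, edgeR). Krt14 was at 5167, 2506 and 2882 CPM against 2832, 868 and 1396 CPM (−1.05, SE 0.33, adjusted p = 0.286, edgeR). In both genes IR replicate 1 lay within the sham range and replicates 2 and 3 below it. Without replicate 1, Krt5, Krt14 and Krt15 were called lower, by −2.09, −1.63 and −6.32 (adjusted p = 0.00418, 0.00676 and 0.00292, edgeR). In that fit 2.38% of all tested genes were called lower. Trp63, the master regulator of basal identity, was at 99.3, 72.5 and 91.8 CPM against 60.7, 59.7 and 43.0 CPM, lower in all 3 IR libraries but not called (−0.68, adjusted p = 0.353, edgeR). The anchoring genes Itga6 and Col17a1, which tie basal cells to the matrix, were kept within 2-fold with all libraries (−0.38 and −0.16). Without replicate 1 they were lower, Itga6 at −0.72 (SE 0.21, adjusted p = 0.0597, edgeR) and Col17a1 at −0.29 (SE 0.18).

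Squamous and cornification genes had no kept member: 0 of 24 tested, with 0 called by edgeR, 11 below an unadjusted p of 0.05 (all lower) and a median of −1.31. Krt6a, a stress keratin, was at 2385, 1021 and 1240 CPM in sham passage 1 and at 852, 171 and 367 CPM in IR passage 2 (−1.74, SE 0.43, adjusted p = 0.162, edgeR). The near-identical Krt6b may share its reads. Dsg3, a desmosomal cadherin, was at 120, 60.5 and 61.3 CPM against 50.01, 15.5 and 29.2 CPM (−1.31, SE 0.33, adjusted p = 0.162, edgeR). Much of the list was highest in sham replicate 1: Krtdap was at 136, 1.76 and 6.98 CPM in sham passage 1. Without that library the median was −0.43. S100a8, of the calprotectin pair, was near the sham passage 1 level, at 11.3, 3.52 and 5.95 CPM against 6.25, 5.43 and 6.49 CPM. S100a9, the other gene of the pair, was at 4.51, 1.06 and 2.07 CPM against 0.893, 0.418 and 2.84 CPM, on few reads. The intervals ran from −1.46 to 1.27 for S100a8 and from −2.95 to 1.44 for S100a9, too wide to be kept. Sham passage 2 had S100a8 at 135, 58.1 and 133 CPM, 4.05 above sham passage 1 on the log2 scale (SE 0.56, adjusted p = 0.000529, edgeR).

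BMP4 itself did not pass the test. Bmp4 was at 4.51, 6.69 and 4.40 CPM in sham passage 1 and at 15.2, 14.2 and 11.8 CPM in IR passage 2. The groups did not overlap, as for 5.80% of all tested genes with IR passage 2 higher. The log2 fold change was 1.39 (SE 0.42, adjusted p = 0.248, edgeR). IR passage 1 was at 14.4, 15.2 and 17.4 CPM and sham passage 2 at 2.1, 0.608 and 0.376 CPM. Within passage 2, IR exceeded sham by 3.62 (SE 0.58, adjusted p = 0.000353, edgeR), and in sham glands passage 2 against passage 1 gave −2.23 (SE 0.60, adjusted p = 0.0436, edgeR). All these levels rest on few reads.

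Id1 was at 91.4, 49.3 and 55.1 CPM in sham passage 1 and at 138, 246 and 129 CPM in IR passage 2 (1.40, SE 0.44, adjusted p = 0.286, edgeR). Id3 was at 91.4, 62.0 and 81.2 CPM against 179, 358 and 253 CPM (1.75, SE 0.50, adjusted p = 0.227, edgeR). Neither was called, though in both genes all IR libraries were above all sham libraries. The same held for 5.80% of all tested genes. Id2 was at 293, 246 and 237 CPM against 289, 457 and 424 CPM (0.59, SE 0.24, adjusted p = 0.409, edgeR), and its groups overlapped. Without IR replicate 1, Id3 was called higher (1.98, SE 0.54, adjusted p = 0.0416, edgeR) and Hey1, a transcriptional repressor shared with Notch signalling, lower (−2.31, adjusted p = 0.0488, edgeR). Of 9 tested BMP and SMAD targets 0 were called by edgeR and 3 were kept within 2-fold. The 5 with an unadjusted p under 0.05 were 3 higher and 2 lower. Over all tested genes 9.76% had such a p. The list median was 0.28, and lay between 0.14 without IR replicate 2 and 0.47 without IR replicate 1.

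Bmpr1a and Bmpr2, the type I and type II receptors, and Smad1 and Smad5 were kept within 2-fold (0.07, 0.29, 0.14 and 0.05). Of 15 tested ligands, receptors and antagonists 6 were kept and 0 were called by edgeR. The 4 with an unadjusted p under 0.05 were 2 higher and 2 lower. The secreted antagonists had negative values. Sostdc1, which binds BMPs, was at 292, 44.7 and 76.1 CPM against 58.9, 1.67 and 11.4 CPM (−2.43, SE 0.81, adjusted p = 0.314, edgeR), and Fst, the activin-binding follistatin, at 234, 207 and 213 CPM against 225, 62.3 and 84.4 CPM (−0.80, SE 0.34, adjusted p = 0.442, edgeR). Both were called lower without IR replicate 1 (−4.34 and −1.56, adjusted p = 0.0178 and 0.00561, edgeR). Noggin (Nog), chordin (Chrd) and both gremlins did not pass the filter on low counts, with Nog at 0.298 to 2.82 CPM.

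Fn1, the matrix protein fibronectin, had a wide range. It was at 728, 868 and 1138 CPM in sham passage 1 and at 625, 1681 and 2162 CPM in IR passage 2 (0.71, interval −0.23 to 1.64). In sham passage 2 it was at 37.1, 121 and 89.4 CPM, so IR and sham differed by 4.17 within passage 2 (SE 0.46, adjusted p = 0.000195, edgeR). The departure of IR passage 2 from the sum of the separate irradiation and passage differences was 2.91 for Fn1 (SE 0.65, adjusted p = 0.315, edgeR).

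**Figure D2:**
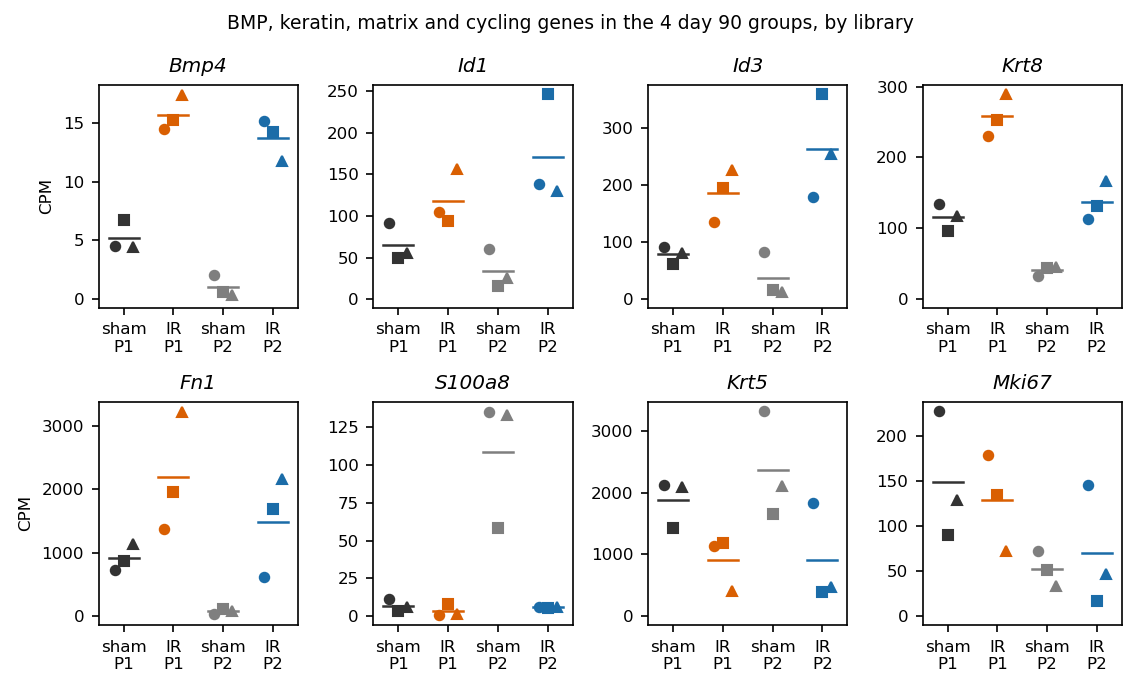
Level in CPM (linear axes that differ between panels) of 8 genes in the 12 libraries of day 90, with replicates 1, 2 and 3 as circles, squares and triangles and group means as lines. For Krt8 and S100a8 the IR passage 2 libraries lie near sham passage 1 and away from sham passage 2, and for Krt5 and Mki67 IR replicate 1 lies above replicates 2 and 3.

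Proliferation genes differed among the IR passage 2 replicates. Mki67, a nuclear protein of cycling cells, was at 227, 89.8 and 129 CPM in sham passage 1 and at 146, 16.7 and 47.0 CPM in IR passage 2 (−1.06, SE 0.55, adjusted p = 0.553, edgeR). Top2a, the topoisomerase of dividing cells, was at 513, 351 and 457 CPM against 396, 56.8 and 161 CPM. Ccna2, cyclin A, was at 75.03, 44.0 and 64.7 CPM against 49.7, 1.67 and 12.6 CPM. In all 3 genes replicate 1 was within the sham range and replicate 2 was the lowest of the 6 libraries. Of 32 tested G2/M genes 0 were called by edgeR, 20 had an unadjusted p under 0.05 (all lower), 3 were kept within 2-fold and the median was −1.05. Without replicate 1, 20 of 32 were called lower, against 2.38% of all tested genes in that fit. The median was then −1.76, against −0.66 without replicate 2. Ccna2 was at −3.07 without replicate 1 (adjusted p = 0.00772, edgeR). Birc5, an inhibitor of apoptosis needed in mitosis, was at −2.46 there (adjusted p = 0.00498, edgeR).

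S phase genes gave a like picture. All 30 tested had negative log2 fold changes, 2 were kept within 2-fold, 0 were called by edgeR, 13 had an unadjusted p under 0.05 and the median was −0.75. Without replicate 1 the median was −1.31 and 9 of 30 were called lower, against 2.38% of all tested genes. Without replicate 2 the median was −0.48. Sham passage 2 was low as well, with Mki67 at 72.2, 51.1 and 34.2 CPM and a median of −1.14 for the G2/M list against sham passage 1. In the mean log2 CPM over the G2/M list, sham passage 1 stood at 5.85, 5.11 and 5.64 and IR passage 2 at 5.36, 3.34 and 4.29.

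Immediate early genes had the opposite sign. All 21 tested had positive log2 fold changes, with a median of 0.69, 3 kept within 2-fold, 0 called by edgeR and 8 with an unadjusted p under 0.05. Against the same sham passage 1 libraries the list median was 0.51 for sham passage 2 and 0.23 for IR passage 1. Atf3, a stress-induced transcription factor, was at 109, 96.8 and 62.9 CPM in sham passage 1 and at 88.4, 418 and 491 CPM in IR passage 2 (1.90, SE 0.49, adjusted p = 0.169, edgeR). Btg2, an antiproliferative p53 target, was at 168, 212 and 222 CPM against 241, 439 and 437 CPM (0.89, SE 0.23, adjusted p = 0.162, edgeR). Replicate 1 again fell nearest to the sham libraries, within their range for Atf3. Without it 8 of 21 were called higher, against 1.47% of all tested genes in that fit. Atf3 was higher by 2.36 and Btg2 by 1.13 (adjusted p = 0.00473 and 0.00561, edgeR). The list median was 1.03 without replicate 1 and 0.52 without replicate 3. Leaving out replicate 1 favours larger differences, so these calls are descriptive only. Genes of this class respond to cell dissociation and handling, and the part of handling in these values was not tested.

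No gene of the p53 response, which radiation damage induces, was called. Cdkn1a, the cell cycle inhibitor p21, was at 216, 276 and 338 CPM in sham passage 1 and at 519, 334 and 346 CPM in IR passage 2, a log2 fold change of 0.53 with an interval from −0.02 to 1.07. Mdm2, the ubiquitin ligase that restrains p53, was at 60.4, 67.2 and 76.3 CPM against 112, 142 and 110 CPM (0.83, SE 0.23, adjusted p = 0.198, edgeR). Of 29 tested p53 targets 17 were kept within 2-fold and 0 were called by edgeR. The 9 with an unadjusted p under 0.05 were 7 higher and 2 lower. The median was 0.32, with 23 positive. Without replicate 1 the median was 0.30, and Btg2 and Plk2, a kinase of the stress response, were called higher. In that fit 1.47% of all tested genes were called higher.

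**Figure D3:**
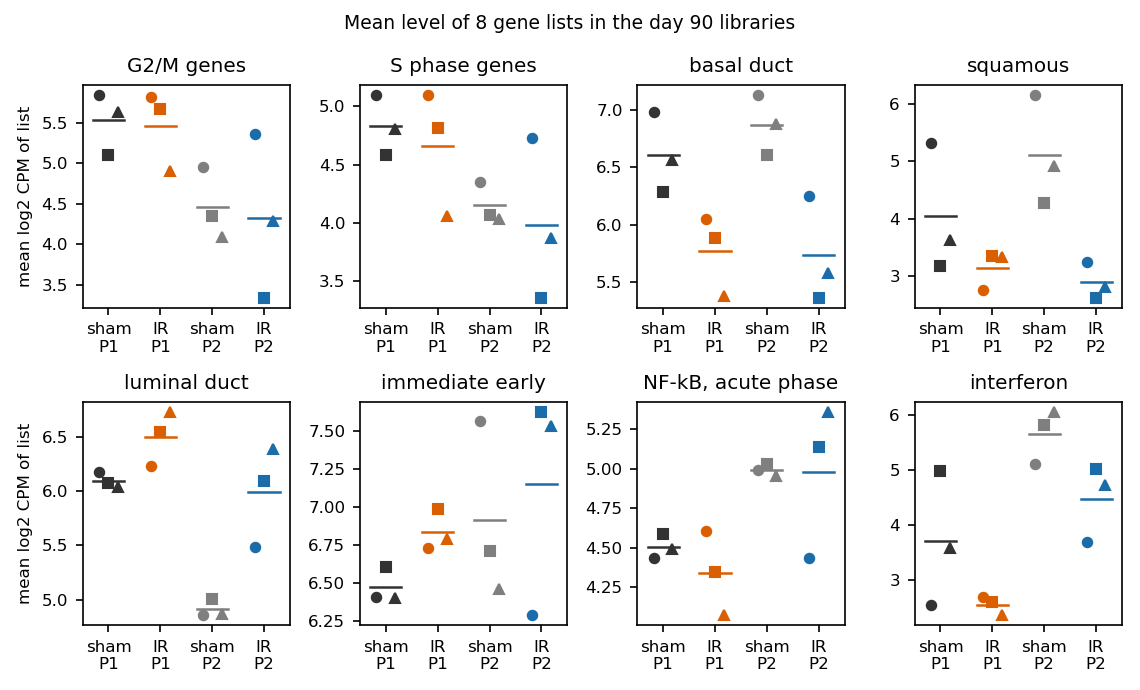
Mean log2 CPM over the tested members of 8 gene lists in the 12 libraries of day 90, with replicates 1, 2 and 3 as circles, squares and triangles and group means as lines. IR passage 2 replicate 1 (blue circle) lies nearer to sham passage 1 than replicates 2 and 3 for the G2/M, S phase, basal duct and NF-kB lists, and sham passage 1 libraries spread over more than 2 log2 units for the interferon list.

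Interferon response genes cannot be placed in this comparison because the sham passage 1 libraries differed among themselves. Isg15, a ubiquitin-like protein induced by interferon, was at 6.21, 148 and 39.6 CPM in sham passage 1 and at 35.1, 112 and 77.5 CPM in IR passage 2. The mean log2 CPM over the list was 2.53, 4.99 and 3.57 in sham passage 1 and 3.68, 5.01 and 4.73 in IR passage 2. Of 43 tested genes 0 were called by edgeR, 0 had an unadjusted p under 0.05 and 3 were kept within 2-fold. The median of 0.44 moved to 0.15 without sham replicate 1 and to 1.37 without sham replicate 2.

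The lists with the largest kept shares were oxidative phosphorylation, ribosomal protein, heat shock and Wnt genes. Of 32 tested nuclear genes of oxidative phosphorylation 30 were kept within 2-fold, with a median of −0.15. Of 40 ribosomal protein genes 36 were kept (−0.12), of 19 heat shock genes 15 (0.07) and of 22 Wnt pathway genes 17 (0.09). With 1 library left out, the last 3 medians ran from −0.18 to −0.05, from 0.02 to 0.14 and from −0.00 to 0.16. The share over all tested genes was 67.2%. Every other list with at least 10 tested members lay below that share, from desmosome genes (13 of 21) to squamous genes (0 of 24). Being kept depends on the width of the interval as well as on the fold change. A low share therefore does not by itself show a change: interferon genes had 3 of 43 kept and 0 with an unadjusted p under 0.05. Among the kept genes were Hsp90ab1, a cytosolic chaperone (−0.02), Cdh1, the adhesion protein E-cadherin (−0.06), Ctnnb1, its partner beta-catenin (0.06), and Sox9, a progenitor transcription factor (0.12). Of 16 tested stem and progenitor surface or identity genes 9 were kept and 0 were called by edgeR. The 3 with an unadjusted p under 0.05 were 1 higher and 2 lower.

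**Figure D4:**
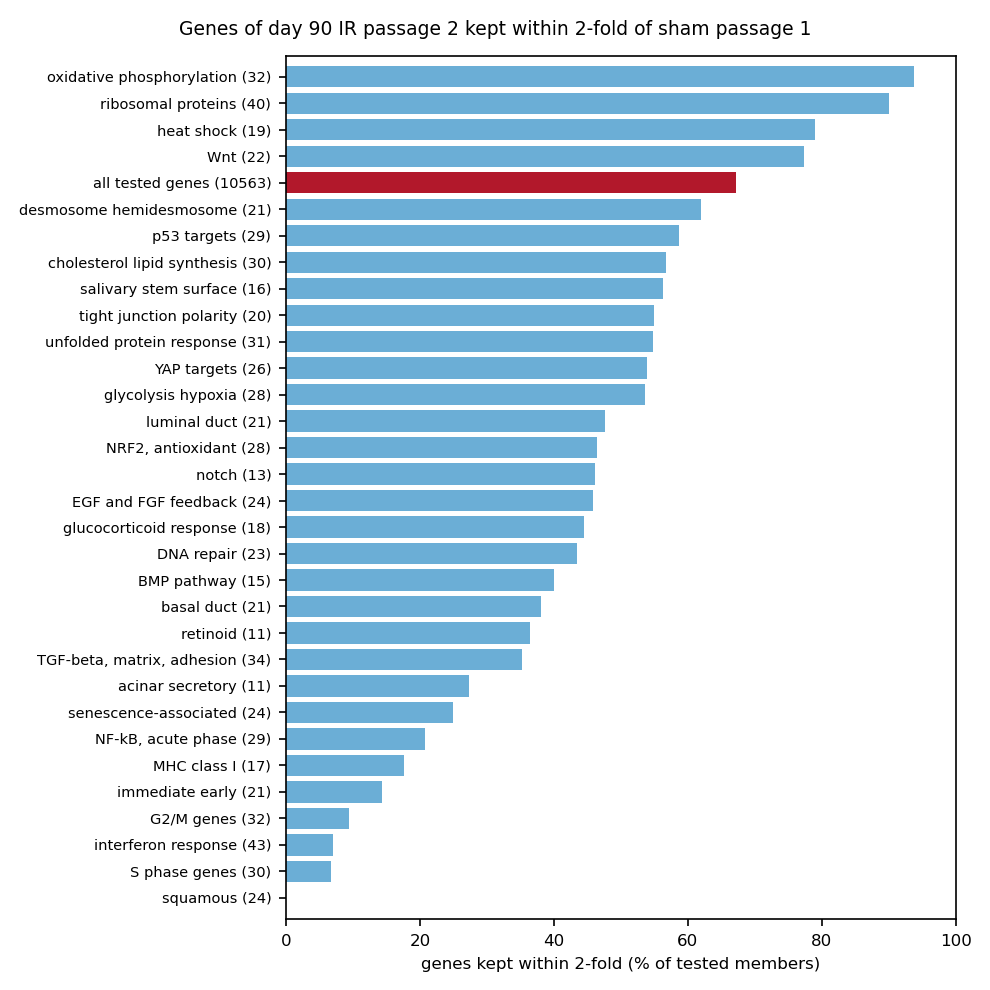
Share of the tested members of each gene list with at least 10 tested members whose 95% interval of the log2 fold change, IR passage 2 against sham passage 1 at day 90, lay within −1 and 1, with the number tested in brackets, bars from 0 and the share over all 10563 tested genes (67.2%) in red. Oxidative phosphorylation and ribosomal protein genes are at the top and squamous genes, with 0 of 24, at the bottom. A low share can come from wide intervals as well as from larger fold changes.

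Distances between libraries give the same comparison over all tested genes. The root mean square difference in log2 CPM averaged 0.642 ± 0.138 (SD over 9 pairs that share libraries) between IR passage 2 and sham passage 1. It averaged 0.542 within sham passage 1 and 0.607 within IR passage 2. From IR passage 2 it was 0.679 to IR passage 1 and 0.736 to sham passage 2, and sham passage 1 and sham passage 2 were 0.674 apart. Replicate 1 of IR passage 2 was 0.521 from sham passage 1 on average, less than the mean distance among the sham libraries themselves, while replicates 2 and 3 were 0.759 and 0.645 away. The spread of 0.449 to 0.885 over the 9 pairs exceeds the differences between these means.

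**Figure D5:**
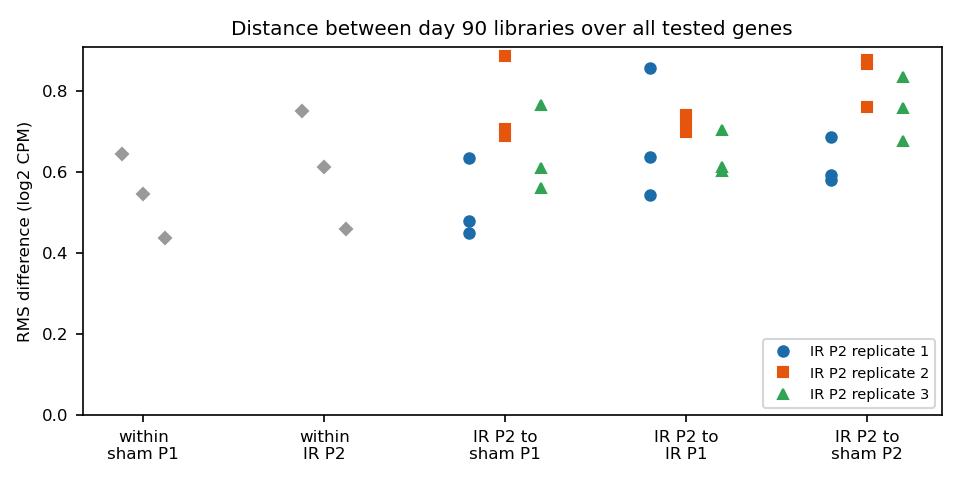
Root mean square difference in log2 CPM over all tested genes for pairs of day 90 libraries, with the y axis from 0, grey diamonds for the 3 pairs within a group and coloured points for each IR passage 2 library against the 3 libraries of another group. Replicate 1 is nearest to sham passage 1 (mean 0.521) and replicate 2 is the farthest from it (mean 0.759).

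The comparisons of day 90 that share these libraries differed widely in their counts of calls. Against the same sham passage 1 libraries, sham passage 2 had 144 called genes (1.36%) and IR passage 1 had 5 (0.0473%). Against sham passage 2, IR passage 2 had 520 (4.92%). Between the passages of irradiated glands 0 genes were called by edgeR (0.00%), with 1066 at an unadjusted p under 0.05 (10.1%). A larger count does not by itself show a larger difference.

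A test of whether IR passage 2 departed from the sum of the irradiation and passage differences called 0 genes by edgeR (0.00%), with 407 at an unadjusted p under 0.05 (3.85%) and 3 called by DESeq2. The smallest p-values were those of Gpx3, a glutathione peroxidase that cells secrete (6.38, SE 1.33, adjusted p = 0.288, edgeR), Klrb1f, a lectin-like receptor gene (3.71, SE 0.82, adjusted p = 0.302, edgeR), and Atp1b1, a subunit of the sodium pump (1.85, SE 0.40, adjusted p = 0.302, edgeR). Gpx3 was at 3.39, 51.7 and 11.4 CPM in sham passage 1, at 0.899, 1.82 and 1.5 CPM in sham passage 2 and at 7.14, 113 and 106 CPM in IR passage 2. Without IR passage 2 replicate 1, 9 genes were called.

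The same comparison at day 14 uses other libraries. It had 1 called gene (0.00947%) by edgeR, Nectin3, an adhesion molecule of cell junctions, at 9.45, 9.89 and 9.24 CPM in sham passage 1 and at 1.15, 1.99 and 1.81 CPM in IR passage 2 (−2.48, SE 0.41, adjusted p = 0.0133). At day 90 Nectin3 was at 10.7, 7.04 and 9.83 CPM against 3.57, 2.92 and 4.06 CPM, with no overlap and no call (−1.36, SE 0.32, adjusted p = 0.118, edgeR). The 7 genes called at day 90 all had the same sign at day 14, and 0 of them were called there. The 6 called lower were nearer to 0 at day 14, but they had been picked by their day 90 values. No difference between the days was called for them by edgeR. Their log2 fold changes at day 14 were −1.64 for Car6, −2.57 for Mucl2, −2.41 for Klk1 and −1.69 for Tfap2b. Nt5dc2 was at −0.73 (SE 0.40) and 2310057J18Rik at −0.30 (SE 0.54). Among the fits with 1 library left out, Nectin3 kept its call at day 14 only without sham replicate 1, where 4 genes were called. Without sham replicate 2 or 3 or IR replicate 2, 0 genes were called, and without IR replicate 1 or 3 the 1 called gene was not Nectin3. Saa1 at day 14 was at 0, 1.75 and 0 CPM against 9.18, 33.2 and 6.16 CPM (4.59, SE 1.62, adjusted p = 0.207, edgeR), and Klk1 at 85.1, 3.49 and 46.2 CPM against 3.44, 5.97 and 13.8 CPM. Over all 10563 genes the log2 fold changes of the days were nearly unrelated (Pearson correlation 0.08, Spearman correlation 0.02, across genes, which are not independent replicates).

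The list medians of the days were set side by side. The squamous list was at −1.31 at day 90 and 1.05 at day 14, luminal duct genes at 0.22 and −0.70, and G2/M genes at −1.05 and −0.30. The difference between the days called 0 genes by edgeR (0.00%), with 815 at an unadjusted p under 0.05 (7.72%) and 17 called by DESeq2. The 3 genes with the smallest p were Notch1, a receptor of cell fate decisions (−1.37, SE 0.29), Prmt6, an arginine methyltransferase (−1.25, SE 0.27), and Fn1 (3.0, SE 0.64), each with an adjusted p of 0.322 by edgeR. Without IR passage 2 replicate 1 of day 90, 103 genes differed between the days. Within 2-fold in both days were 6046 genes, of 7097 kept at day 90 and 6832 at day 14 (64.7%).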

How the data were processed

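The authors deposited raw counts of reads per gene, 1 table per library, with Ensembl identifiers and no normalization. Libraries were made with the QuantSeq 3' kit, per the labels' protocols, so counts do not grow with gene length. Per the submitters' processing notes, bcl2fastq and the build GRCm39 were used, and no source used here gives the aligner, counter or strand setting. Overlapping or near-identical genes may therefore share reads. The 5 lines that name no gene were left out. Between 11.5% and 26.5% of reads lay on no gene and 0.259% to 0.451% were ambiguous. Symbols matched 47224 of 47643 identifiers.

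Groups came from the labels. The main test was edgeR's quasi-likelihood test (version 4.0.16, R 4.3.3). TMM factors were used, low counts were filtered with filterByExpr over 8 groups, and 1 mean per group was fitted to 24 libraries. P-values are two-sided with Benjamini-Hochberg adjustment over all tested genes, with calls at 0.05. The SE came from the fitted weights and the moderated spread. For a gene with 0 counts in a group, 3 counts in that whole group served as the floor, which takes only counting error into account. Exact permutation of 3 libraries against 3 cannot go below p = 0.1 and was not used. Distances used log2 CPM with a prior count of 2. The scripts were tested on simulated counts.

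The members and the 41 gene lists were chosen with earlier results of these data known. The text names 20 set genes, up to 10 called genes per direction with no overlap and 5 CPM or more on average, up to 4 called members of lists with at least 2 called, the 3 genes with the smallest p where the interaction or day difference called none, and up to 3 kept members per list with at least 5 kept. Other genes (2310057J18Rik, the secretory genes not called, members named for their values without IR replicate 1 and other list examples) were chosen after their values were seen. Alternatives were DESeq2 1.42.0, other factors, filters and library sets, a replicate block, ribosomal RNA genes left out or as a covariate, a margin of 1.5-fold, and each library left out.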

Additional observations from a re-analysis of the deposited data

How the results depend on the processing

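The count of 7 called genes at day 90 was 7 or 8 with other scaling factors, with a filter of 5 CPM in 3 libraries, without ribosomal RNA genes and with the Gm42418 share as a covariate, and 5 with the 12 libraries of day 90. Under the last 2 of these Saa1 was not called and 0 genes were higher. It was 36 by DESeq2, 411 without a filter on low counts, and 0 with the 6 compared libraries alone, where 762 genes had an unadjusted p under 0.05. Leaving out 1 library gave 1 to 417. The day 14 count of 1 was 2 with median-of-ratios factors, with the stricter filter and without ribosomal RNA genes, 23 by DESeq2, 193 without a filter, 11 with day 14 libraries alone and 0 to 4 with 1 library left out. The difference between the days went from 0 to 17 by DESeq2, 208 without a filter and 0 to 103 with 1 library left out. The interaction went from 0 to 3 by DESeq2, 95 without a filter and 0 to 9. The count kept within 2-fold was 2833 at a margin of 1.5-fold and 5776 to 6719 with 1 library left out. Other than from the construction of an alternative, the cause was not tested.

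With the replicate number as a block the counts were 23 at day 90, 8 at day 14, 1 for the days and 2 for the interaction. Deviations of same-numbered libraries correlated at 0.117, 0.0496 and −0.0862, so the numbers were not taken to pair the samples. The numbers are those of the sample titles. The deposited files number the IR passage 2 libraries and 1 IR passage 1 library of day 90 otherwise, so the block counts and these correlations rest on the titles. Of 511 values for named genes 462 kept their direction and side of the threshold, and none reversed. A gene that was not called counts as unchanged while it stays so, and most of these genes were not called. Of the called genes, the call was lost in 8 of 16 alternatives for Saa1, 6 for Nt5dc2 and 5 for Klk1. It was lost in 4 for 2310057J18Rik, 3 each for Mucl2 and Tfap2b and 1 for Car6. Of 590 list medians 550 stayed within the spread. With 3 libraries per group and genes at a few CPM, many differences above 2-fold could not be separated from 0.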

Other observations

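Desmosome and hemidesmosome genes bind epithelial cells to each other and to the matrix. At day 90, 19 of 21 tested members were negative, 0 were called by edgeR and 13 were kept within 2-fold. The 8 with an unadjusted p under 0.05 were 1 higher and 7 lower. The median log2 fold change was −0.38, and −0.23 without sham replicate 1. Dsp, the desmosomal plaque protein desmoplakin, was at 3095, 1595 and 2031 CPM in sham passage 1 and at 1862, 986 and 1110 CPM in IR passage 2. Dsc3, a desmosomal cadherin, was at 146, 85.2 and 93.4 CPM against 79.8, 38.0 and 41.8 CPM. The groups overlapped for Dsp and not for Dsc3, and replicate 1 was again the highest of the IR libraries. Without it 5 of 21 members were called lower, against 2.38% of all tested genes. Among them were Dsp (−1.09, adjusted p = 0.0221, edgeR) and Dsc3 (−1.42, adjusted p = 0.00561, edgeR).

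Genes of the unfolded protein and integrated stress response were positive for 25 of 31 tested members, with 0 called by edgeR, 6 at an unadjusted p under 0.05, 17 kept within 2-fold and a median of 0.23, which was 0.10 without IR replicate 2. Atf6, a sensor of unfolded proteins in the endoplasmic reticulum, was at 32.7, 37.3 and 31.6 CPM against 32.4, 69.4 and 56.8 CPM. Replicate 1 lay within the sham range. Without it 5 of 31 members were called higher, against 1.47% of all tested genes. Atf6 was higher by 0.91 (adjusted p = 0.00561, edgeR). Igfbp5, which binds insulin-like growth factors, was at 23.1, 34.9 and 54.3 CPM against 17.9, 0.836 and 6.89 CPM, and Aldh1a3, an enzyme of retinoic acid synthesis, at 90.3, 69.0 and 61.1 CPM against 47.0, 38.0 and 40.6 CPM. Neither was called (adjusted p = 0.429 and 0.445, edgeR). The groups did not overlap in either gene, as for 6.43% of all tested genes with IR passage 2 lower.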
